A study of Mus musculus with 2 samples.

Results

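Heat shock proteins and the chaperones that work with them were examined in primary osteoblasts, the bone-forming cells, from the skull caps of 5-day-old C57BL/6 mice. One culture spent 6 h in 4 mM phosphate and the other in 1 mM phosphate, the level of the unmodified medium, both serum-free and at pH 7.2 after a night without serum. The extra phosphate came from a sodium phosphate stock, so sodium was added with it. Each condition was 1 array, hence no replicate error exists, no test between conditions was possible and every difference describes these 2 arrays. The labels do not say how many animals contributed to a culture.

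The list held 39 genes, and each was represented by the probe sets whose annotation names that gene alone. Such probe sets were found for 37 of the 39 genes, 99 probe sets in all among 45037 on the array, and Hsf1 and Hsp90ab1 were not analysed here. A signal floor of 21.5, the median of all values on both arrays, marked what was called measured. Of the 99 probe sets, 82 were above it on both arrays, 4 on the phosphate array alone, 0 on the control array alone and 13 on neither. All 37 genes had at least 1 measured probe set. The value of a gene is that of its brightest probe set, and ratios are given on the log2 scale as phosphate minus control. The only available error was technical, the spread of log2 ratios between probe sets of the same gene. Its standard deviation (SD) was 0.42 for probe sets whose dimmer signal was under 100. The SD was 0.26 for signals of 100 to 400 and 0.16 for brighter ones. Only probe sets of a gene within the same range were compared, so differences between its bright and dim probe sets are left out.

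Heat shock proteins bind unfolded or unfinished proteins and help them fold. HSP70 proteins do so in cycles of ATP hydrolysis that DNAJ (HSP40) proteins start and that nucleotide exchange factors, among them the HSP110 and BAG proteins, complete. HSP90 finishes the folding of kinases and steroid receptors with its own co-chaperones, and the CCT ring folds actin and tubulin. Heat shock factors, chiefly HSF1, switch on many of these genes when misfolded protein accumulates.

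The chaperones as a whole differed little between the cultures, apart from a few HSP70 and HSP110 genes. In 4 mM phosphate 5 of the 37 genes (13.5%) were at least 1.5-fold higher, namely Hspa4l, Hspa1a, Hspa1b, Hsph1 and Dnaja4, against 7.26% of the 12276 measured genes of the array. None of the 37 was 1.5-fold lower, against 12.1% of all measured genes. These counts hold for the scaling as deposited. With poly-A spikes, control RNAs added before labelling, set to equal signal, Hspa4l alone remained 1.5-fold higher, Hspa2 and Dnajb4 became 1.5-fold lower and the members' median log2 ratio turned to -0.30. The same scaling placed 2.29% of all genes higher and 41.6% lower. At 2-fold, 1 member (Hspa4l) was higher and 0 lower, and the backgrounds were 2.3% and 2.92%, so the 2-fold share is near that of all genes. The other 32 genes (86.5%) lay within 1.5-fold, as did 80.6% of all measured genes. The members' median log2 ratio was 0.16, against -0.06 over all measured genes, and 30 of 37 (81.1%) were above 0, against 44.1% of all measured genes. These directions rest on the brightest probe set of each gene. Of 24 members with 2 or more measured probe sets, 9 had every ratio above 0, 3 had every ratio below 0 and 12 were mixed. Brighter genes tended to higher ratios on these arrays. Among genes whose dimmer signal exceeded 400, 21 of 25 members (84.0%) and 48.5% of all genes were above 0.

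The share of higher genes also depended on brightness. With a dimmer signal under 100, 2 of 4 members were at least 1.5-fold higher, against 11.2% of all genes in that range. From 100 to 400 it was 2 of 8 members, against 6.03%, and above 400 it was 1 of 25, against 3.9%. Among bright genes the members' share was thus that of the background, and the only bright member past 1.5-fold was Hsph1.

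**Figure D1:**
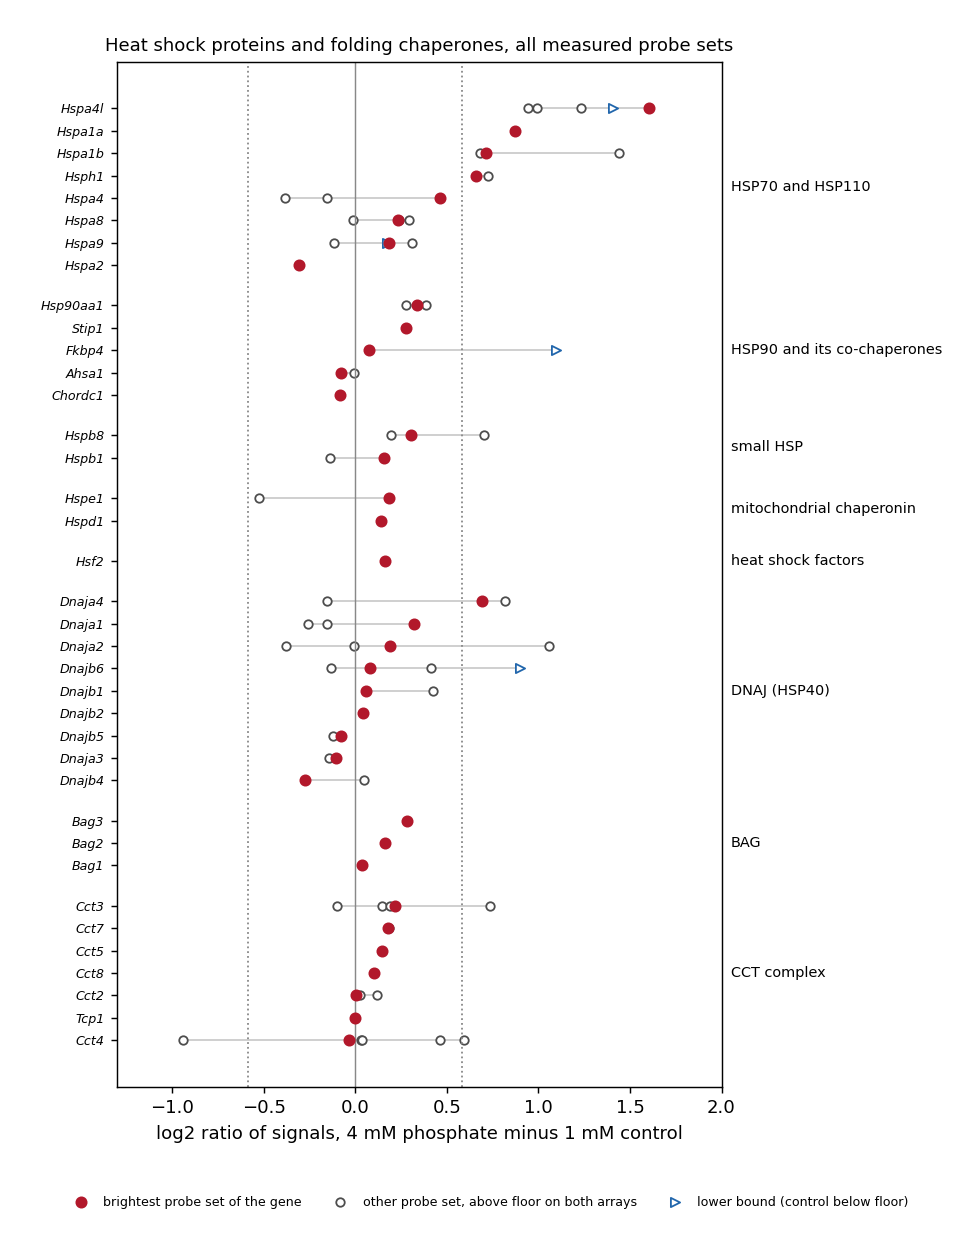
Log2 ratio (x axis) of every measured probe set of the 37 genes (y axis, grouped by class), 4 mM phosphate minus 1 mM control. Filled points are the brightest probe set of a gene, open points its other probe sets, triangles lower bounds and dotted lines 1.5-fold. Hspa4l, Hspa1a, Hspa1b and Hsph1 have all their points to the right of the 1.5-fold line.

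A second reading came from genes with several probe sets, which read different stretches of one transcript. Of 24 members with 2 or more measured probe sets, 3 (Hspa4l, Hspa1b and Hsph1) were at least 1.5-fold higher on every one, or 12.5%, against 3.01% of the 5606 such genes on the array. None was 1.5-fold lower on every one, against 2.91%. Among single probe sets measured on both arrays, 16 of the members' 82 (19.5%) were at least 1.5-fold higher, against 8.35% of all, and 1 was 1.5-fold lower, against 10.8%. That lower one belonged to Cct4, whose brightest probe set had a log2 ratio of -0.03. Most of the 16 higher ones belonged to Hspa4l, Hspa1a, Hspa1b, Hsph1 and Dnaja4. They read genes already counted again on the same RNA and are not separate members.

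Hspa4l, an HSP110 family gene encoding a nucleotide exchange factor for HSP70, differed most. Its brightest probe set had a signal of 289.6 in phosphate and 95.2 in the control, 3.04-fold higher with a log2 ratio of 1.61. This placed the gene at rank 106 of the 12276 measured genes. The other 4 probe sets all pointed the same way. Their signals were 123 in phosphate and 63.9 in the control, 101 and 42.9, 84.7 and 42.6, and 57.0 and 21.2. The last of these is a bound of at least 2.65-fold, because its control signal was under the floor. Over the 4 probe sets that passed the floor in both cultures the log2 ratio was 1.19 ± 0.30 (SD across probe sets of the same RNA, which is technical).

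Hspa1a and Hspa1b, the stress-inducible cytosolic HSP70 genes, are neighbouring near-identical copies on chromosome 17, and probe sets for one may also bind RNA of the other. The single probe set of Hspa1a had a signal of 117 in phosphate and 64.1 in the control, a log2 ratio of 0.87. Hspa1b read 329.6 in phosphate and 201 in the control on its brightest probe set (log2 ratio 0.71). Its other probe sets read 227 in phosphate and 141 in the control (0.68), and 345 and 127 (1.44). All 4 probe sets of the pair were thus higher in phosphate.

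Hsph1, which encodes the heat-inducible HSP110 protein, was the brightest of the higher members and had the closest agreement between probe sets. Its signals were 996 in phosphate and 629 in the control on one probe set and 556 and 336 on the other. The log2 ratios were 0.66 and 0.73, or 0.69 ± 0.05 (SD across the 2 probe sets). Hspa4, another HSP110 gene, had probe sets that disagreed. Its brightest read 1851 in phosphate and 1343 in the control (0.46), whereas the others gave -0.16 and -0.38.

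The HSP70 genes made without stress lay within 1.5-fold. Hspa8, the constitutive cytosolic HSP70, had signals of 10849 in phosphate and 9239 in the control, with log2 ratios between -0.01 and 0.29 over 4 probe sets. Hspa9, the mitochondrial HSP70 mortalin, was at 0.19 with signals of 1476 in phosphate and 1297 in the control. Hspa2, an HSP70 best known from male germ cells, was the lowest of all 37 members at -0.30, with 191 in phosphate and 235 in the control. The class median over the 8 HSP70 and HSP110 genes was 0.56, and 4 of them were 1.5-fold higher, against 7.26% of all measured genes. Hspa1a and Hspa1b, whose probe sets may share signal, are both among the 4. Without the 8 genes of this class the median of the other 29 members was 0.14. Of these 29, 1 was 1.5-fold higher, a share below that of all measured genes.

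**Figure D2:**
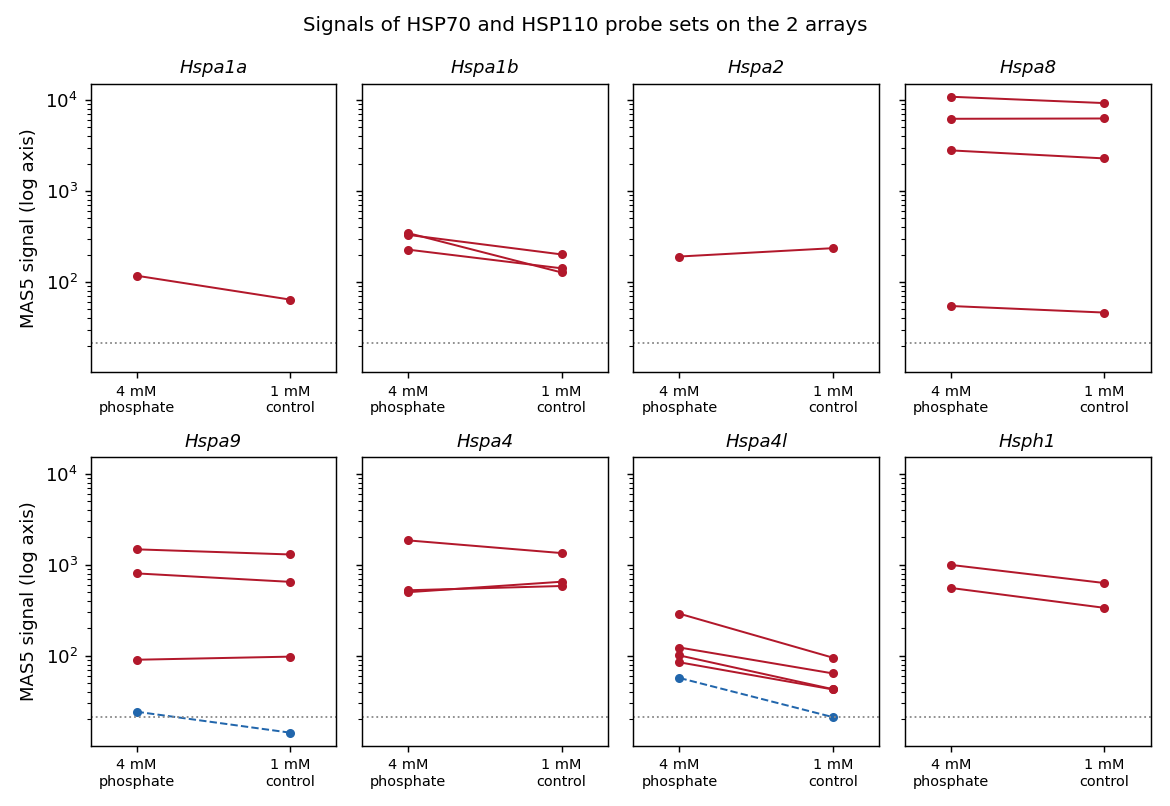
MAS5 signals (log axis) of each measured HSP70 and HSP110 probe set on the phosphate array (left) and the control array (right). Each line is 1 probe set, dashed where the control signal is under the floor (dotted line). All lines of Hspa1a, Hspa1b, Hspa4l and Hsph1 run down towards the control, while those of Hspa4 and Hspa8 are mixed or flat.

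Promoter sequences (RefSeq, GRCm38.p6) are shown for higher members and for Hspd1 and Chordc1, which differed little, because the binding site of HSF1, the heat shock element, is a textbook feature of inducible chaperone genes. The element is built from inverted repeats of a GAA unit. The letters searched were TTCNNGAA and GAANNTTC, each its own reverse complement and so read on both strands, and rows of 3 units in which the 2 motifs overlap. Each line gives 250 bases before the annotated start and 30 after it, with matches in capitals. Hspd1 and Chordc1 are not typical of the members that differed little, since both hold rows of 3 units. Dnaja4 and Hspd1 each have another annotated start, not shown, whose window held no match. Hspa4l lies at chr3:40745363-40745642 (plus strand), Hspa1a at chr17:34972127-34972406 (minus strand), Hsph1 at chr5:149636286-149636565 (minus strand), Dnaja4 at chr9:54699309-54699588 (plus strand), Hspd1 at chr1:55087903-55088182 (minus strand) and Chordc1 at chr9:18292017-18292296 (plus strand).
Hspa4l: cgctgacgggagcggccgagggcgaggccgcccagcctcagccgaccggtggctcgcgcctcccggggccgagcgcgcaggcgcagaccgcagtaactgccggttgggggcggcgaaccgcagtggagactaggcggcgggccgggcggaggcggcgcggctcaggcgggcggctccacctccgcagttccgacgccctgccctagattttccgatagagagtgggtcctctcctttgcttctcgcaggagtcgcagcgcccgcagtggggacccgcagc
Hspa1a: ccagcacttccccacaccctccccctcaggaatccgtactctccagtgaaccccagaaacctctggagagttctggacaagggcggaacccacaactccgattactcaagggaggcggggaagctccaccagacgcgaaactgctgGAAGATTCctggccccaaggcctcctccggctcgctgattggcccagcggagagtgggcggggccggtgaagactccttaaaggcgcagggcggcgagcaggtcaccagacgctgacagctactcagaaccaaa
Hsph1: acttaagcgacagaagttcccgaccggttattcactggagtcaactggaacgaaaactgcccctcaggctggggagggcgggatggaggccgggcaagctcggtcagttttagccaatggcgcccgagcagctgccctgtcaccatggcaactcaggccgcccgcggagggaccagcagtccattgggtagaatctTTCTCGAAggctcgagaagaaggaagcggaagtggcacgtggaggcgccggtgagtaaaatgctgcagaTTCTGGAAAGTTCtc
Dnaja4: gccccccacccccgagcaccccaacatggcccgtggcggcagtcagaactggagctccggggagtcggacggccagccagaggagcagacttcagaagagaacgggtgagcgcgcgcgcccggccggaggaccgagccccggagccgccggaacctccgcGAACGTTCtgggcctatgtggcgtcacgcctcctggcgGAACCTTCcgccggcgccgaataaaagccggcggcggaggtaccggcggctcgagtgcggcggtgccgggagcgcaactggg
Hspd1: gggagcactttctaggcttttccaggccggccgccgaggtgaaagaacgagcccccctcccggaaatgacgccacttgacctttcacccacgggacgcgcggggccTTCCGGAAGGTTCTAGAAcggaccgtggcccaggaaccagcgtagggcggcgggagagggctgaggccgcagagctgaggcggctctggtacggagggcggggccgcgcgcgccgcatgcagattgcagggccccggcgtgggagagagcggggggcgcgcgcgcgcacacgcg
Chordc1: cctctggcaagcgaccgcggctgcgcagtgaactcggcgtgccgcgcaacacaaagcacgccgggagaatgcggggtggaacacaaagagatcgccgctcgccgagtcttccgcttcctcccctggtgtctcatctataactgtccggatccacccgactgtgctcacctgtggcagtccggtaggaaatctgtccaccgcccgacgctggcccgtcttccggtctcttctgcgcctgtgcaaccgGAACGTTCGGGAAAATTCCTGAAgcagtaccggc

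Matches to the heat shock element were more frequent among the chaperones than among measured genes. Of 33 members with a promoter in the table, 16 (48.5%) held at least 1 of the 2 motifs within 250 bases before and 50 after a start, against 14.0% of the 9921 measured genes with a promoter. Rows of 3 units stood in 5 members (15.2%) and in 0.564% of measured genes. Among the 5 higher members 4 (80%) held a match, Hspa4l being the one without these letters in its window. Among the other 28 members 12 (42.9%) did. Hspa1a and Hspa1b, near-identical copies with the same match, are both among the 4, so the 2 shares were not compared. The longest rows belonged to Chordc1, Hspd1 and Hspe1. Chordc1 had 3 overlapping rows of 3 units across its start and a log2 ratio of -0.08. Hspd1 and Hspe1, which are read in opposite directions, share the same stretch with 2 overlapping rows. On their brightest probe sets the log2 ratios were 0.14 and 0.19, but the other probe set of Hspe1 gave -0.52. Hspa1a and Hspa1b had the same match at positions -104 to -97 from the start. Their 300-base windows were 98.7% identical and differed at 4 positions (C44T, T47C, T249G and C276T, Hspa1a first and counted from 1 at the 5′ end), none of them in the match. Cct4, Hsp90aa1, Hspa8 and Hspa9 had no promoter in the table.

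**Figure D3:**
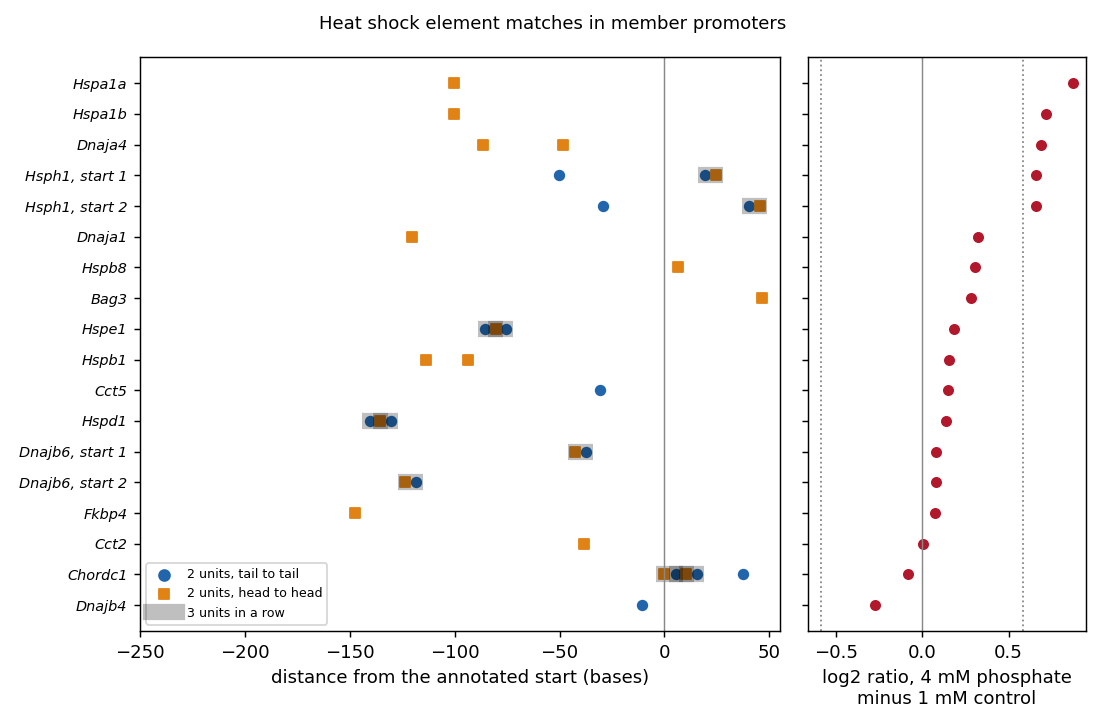
Left, distance in bases from the annotated start (x axis) of each heat shock element match in the 16 members that hold one. Circles are 2 units tail to tail, squares 2 units head to head, and grey bars rows of 3 units. Right, the log2 ratio of the same gene. The grey bars fall on Hsph1, Hspe1, Hspd1, Dnajb6 and Chordc1, of which Hsph1 alone lies past 1.5-fold.

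DNAJ proteins deliver unfolded clients to HSP70. Of 9 measured DNAJ members, Dnaja4 alone passed 1.5-fold, upwards, and their median log2 ratio was 0.06. Dnaja4 had signals of 202 in phosphate and 125 in the control (0.69), and a dimmer probe set with 65.9 and 37.4 gave 0.82. Its other probe set went the other way, with 124 in phosphate and 138 in the control (-0.15), so the probe sets of Dnaja4 did not point one way.

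Dnajb1, the main stress-inducible partner of HSP70, read 1025 in phosphate and 984 in the control (0.06) on its brightest probe set, and 682 and 508 (0.43) on the other. Dnaja1, a constitutive partner of HSP70, was at 0.32 with signals of 3402 in phosphate and 2721 in the control, but its dimmer probe sets gave -0.16 and -0.26. Dnaja2 was at 0.19 and ranged from -0.38 to 1.06 over 4 probe sets. Dnajb6, which suppresses protein aggregation, was at 0.08, with 2688 in phosphate and 2538 in the control. Both genes thus took their widest ratios from dim probe sets, the 1.06 of Dnaja2 from 49.4 in phosphate and 23.7 in the control. Dnajb4 had the lowest ratio of the class at -0.27, with signals of 851 in phosphate and 1027 in the control. Dnaja3, a mitochondrial member, was at -0.10, Dnajb5 at -0.08 and Dnajb2 at 0.04.

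HSP90 and its co-chaperones were within 1.5-fold on their brightest probe sets, 5 of 5, with a median of 0.07. Hsp90aa1, the stress-inducible cytosolic HSP90, had signals of 4940 in phosphate and 3912 in the control, 3587 and 2739, and 2762 and 2277 on its 3 measured probe sets. Their log2 ratios of 0.34, 0.39 and 0.28 were close together, a mean of 0.33 ± 0.06 (SD across the 3 probe sets). The probe sets thus gave a small and even difference with the scaling as deposited. Over the ways of processing tried, the log2 ratio of Hsp90aa1 ran from -0.13 to 0.34. Stip1, which links HSP70 to HSP90, was at 0.28 with 615 in phosphate and 507 in the control. The activator of the HSP90 ATPase, Ahsa1, and the co-chaperone Chordc1 were both at -0.08. Ahsa1 read 1459 in phosphate and 1541 in the control, and Chordc1 read 1058 and 1119. Fkbp4, an immunophilin of steroid receptor complexes, was at 0.07 with 378 in phosphate and 359 in the control, while a dim probe set with 45.9 in phosphate and a control below the floor gave at least 2.14-fold.

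The small heat shock proteins hold unfolded proteins without using ATP. Hspb1 had a log2 ratio of 0.16 with signals of 1155 in phosphate and 1036 in the control, and -0.14 on its other probe set. Hspb8, which works with Bag3 in chaperone-assisted autophagy, was at 0.30 with 439 in phosphate and 355 in the control. All 3 probe sets of Hspb8 were above 0, between 0.20 and 0.70.

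Bag3 itself was at 0.28, with 867 in phosphate and 714 in the control. Bag2, an inhibitor of the ubiquitin ligase CHIP, was at 0.16 with 330.3 in phosphate and 295 in the control. Bag1, which couples HSP70 to the proteasome, was at 0.04 with 2351 in phosphate and 2291 in the control. All 3 BAG genes therefore lay above 0 and within 1.5-fold, each on a single probe set.

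Hspd1 and Hspe1 encode the mitochondrial chaperonin HSP60 and its lid HSP10. Hspd1 read 2771 in phosphate and 2517 in the control (0.14). The probe sets of Hspe1 disagreed: the brighter read 4520 in phosphate and 3973 in the control (0.19), the dimmer 1230 and 1769 (-0.52). The direction for Hspe1 is therefore not settled. Hsf2, a heat shock factor with roles in development, was dim, with 58.1 in phosphate and 51.9 in the control (0.16).

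The 7 measured CCT genes among the members were the most even of the larger classes. Their log2 ratios ran from -0.03 for Cct4 to 0.22 for Cct3, a range narrower than that of any other class with at least 5 genes. As deposited, 6 of 7 were above 0, counting Cct2 and Tcp1, which round to 0.00. With quantile normalization Cct2 was at -0.10 and Tcp1 at -0.05, and with a loess correction at -0.09 and -0.05. Cct3 had signals of 3423 in phosphate and 2941 in the control, Cct7 had 3042 and 2688, and Cct5 had 4533 and 4093. Cct8 was at 0.11, and Cct2 and Tcp1, which encodes the alpha subunit, were at 0.00. The class median was 0.11. Single dim probe sets spread further, from -0.94 to 0.59 over the 6 measured ones of Cct4.

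**Figure D4:**
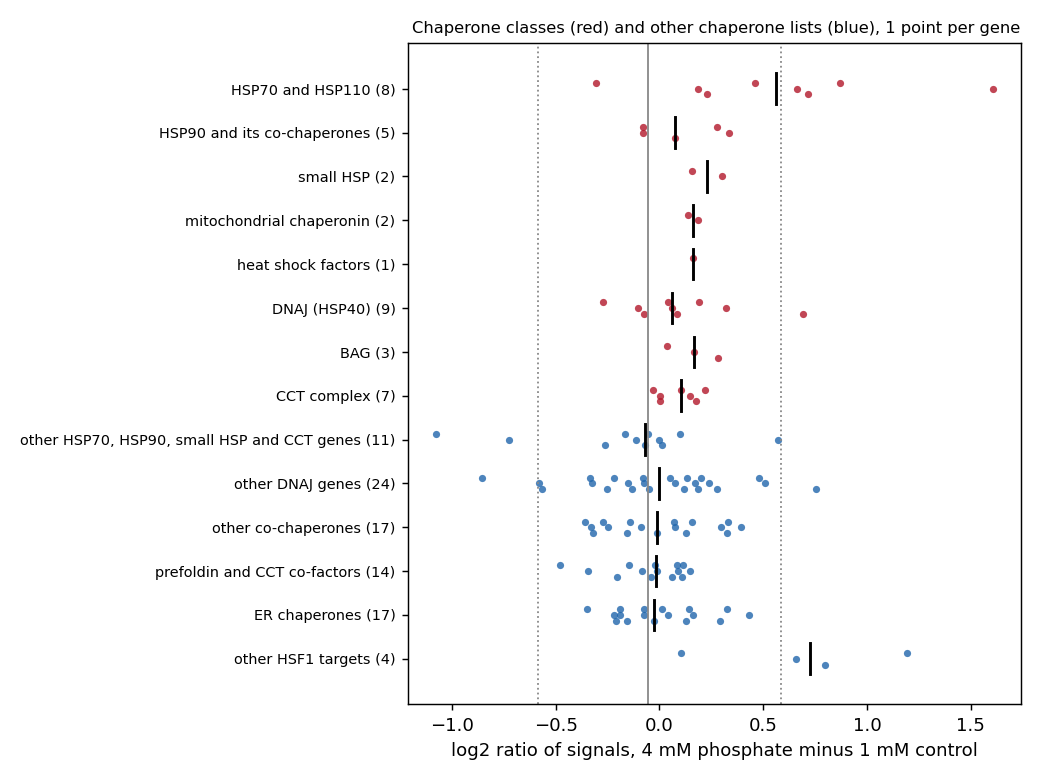
Log2 ratio, 4 mM phosphate minus 1 mM control (x axis), of each measured gene. Red marks the 8 classes of members and blue the 6 lists of other genes, chaperones and HSF1 targets. The number of genes is in parentheses, black bars are medians, the grey line is the median of all measured genes and dotted lines mark 1.5-fold. The highest medians are those of HSP70 and HSP110 (0.56) and of other HSF1 targets (0.73). All lists were chosen with earlier results of these data known.

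Other chaperone genes, taken from lists outside the members, centred on 0. Of 87 measured among 102 listed, 4 exceeded 1.5-fold upwards and 3 downwards, and the median log2 ratio was -0.01. Both counts were below the shares of all measured genes, 7.26% higher and 12.1% lower. Chaperones of the endoplasmic reticulum had a median of -0.03 and 0 of 17 past 1.5-fold in either direction. Their extremes were Dnajb9 (0.43) and Dnajc3 (0.33), co-chaperones of the HSP70 protein BiP, and Pdia4 (-0.22) and Sdf2l1 (-0.35). Prefoldin, which hands clients to the CCT ring, and the CCT co-factors had a median of -0.02 with 0 of 14 past 1.5-fold, from Pfdn2 (0.15) and Pfdn5 (0.11) to Pfdn1 (-0.34) and Tbcd (-0.48). Other co-chaperones had a median of -0.01 with 0 of 17 past 1.5-fold, from Fkbp5 (0.39) and Sgta (0.33) to Sil1 (-0.33) and Stub1 (-0.36).

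Other DNAJ genes had a median of 0.00, with 1 of 24 past 1.5-fold in each direction. Dnajc17 was highest with 1418 in phosphate and 842 in the control (0.75), followed by Dnajb12 (0.51). Dnajc9, a chaperone of histones, was lowest with 1129 in phosphate and 2040 in the control (-0.85), and Dnajc30 was at -0.58. The remaining HSP70, HSP90, small HSP and CCT genes had a median of -0.07, with 0 of 11 higher and 2 lower. Hspb7 and Cct6a were highest at 0.57 and 0.10, and Hspb6 and Hspa12b lowest at -0.72 and -1.08. Hspb6 is a small heat shock protein of muscle and Hspa12b is best known from endothelium, and both were dim, Hspa12b with 23.9 in phosphate and 50.3 in the control.

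Of 4 measured HSF1 targets that are not themselves folding chaperones, 3 were at least 1.5-fold higher, against 7.26% of all measured genes. Their median of 0.73 became 0.50 with the floor at the 65th percentile and 0.26 with poly-A spikes set to equal signal. The list was chosen with earlier results of these data known, so its share of higher genes is descriptive only. Ier5, an immediate early gene whose product binds HSF1, read 815 in phosphate and 356 in the control (1.20), and its 3 probe sets ran from 0.49 to 1.20. Its relative Ier5l was at 0.80, with 184 in phosphate and 106 in the control, and 1.21 on the other probe set. Dedd2 was at 0.66 with 81.0 in phosphate and 51.4 in the control. Zfand2a, which is induced by arsenite, was at 0.10 with 481 in phosphate and 447 in the control, its 4 probe sets lying between 0.03 and 0.31.

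Several measures of the whole arrays moved beside these values. The 24 probe sets for poly-A spikes had a median log2 ratio of 0.46, and the 18 for hybridisation spikes, added after labelling, one of 0.23. With the poly-A spikes set to equal signal the median of all genes shifted to -0.51. This scaling moves all ratios by nearly the same amount. The gap from members to all genes, 0.21 instead of 0.22, could therefore hardly change. RNA integrity, read as 3′ over 5′ signal, was 1.43 in phosphate and 1.36 in the control for actin, and 0.769 and 0.748 for Gapdh. Osteoblast markers were above the floor on both arrays for 8 of 8 genes with a probe set. Their signals summed to 92501 in phosphate and 73889 in the control, and their median log2 ratio of 0.16 was near that of the members. The largest part of the difference in sums came from Dmp1, with 15707.5 in phosphate and 5505 in the control. Of the 8 genes 5 were above 0. The highest were Dmp1 (1.51) and Sparc (0.34), and the lowest Pth1r (-0.24) and Sp7 (-0.39). All 10 macrophage and osteoclast markers were also above it, their signals summing to 15031 in phosphate and 16290 in the control, with a median log2 ratio of -0.56 and 4 of them at least 1.5-fold lower. All 6 chondrocyte markers were above the floor with a median of 0.04, while 0 of 5 endothelial markers were. Skeletal muscle markers were above the floor for 2 of 6 in phosphate and 3 of 6 in the control. Fewer cells of a type and less RNA per cell cannot be told apart here, and the part of the spikes and of other cell types in the chaperone ratios was not tested.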

How the data were processed

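The deposited values are linear MAS5 intensities, each summarising a probe set on an array, and the intensity was computed by the authors in GCOS 1.4, per the submitters' processing notes. Scaling to an equal trimmed mean (200.00 on both arrays without the lowest and highest 2%, as calculated here) hides any change of total mRNA. Biotin-labelled cRNA came from 100 ng of RNA, per the labels' protocols. Of 45037 probe sets besides 64 control spots, 34945 named 1 gene in the platform annotation and gave 12276 measured genes. Signals under the floor were raised to it before log2. Members, lists, folds and motifs were chosen with earlier results of these data known. Any member could be named, and of each other list the 2 highest and 2 lowest genes were. With 1 array per group no test was run. Depth has no counterpart on arrays, and their number limits the precision. The calculation was tested on simulated data. Symbols and promoters came from RefSeq tables of GRCm38.p6. Python 3.11.15, pandas 2.3.3 and statsmodels 0.14.6 were used. The alternatives were other floors, a pseudocount, other choices of probe set and other scalings.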

Additional observations from a re-analysis of the deposited data

How the results depend on the processing

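The same 5 genes were at least 1.5-fold higher, and 0 lower, under 9 of the 10 alternatives planned: a pseudocount, leaving out the floor, a lower floor (35th percentile of all values), a higher one (65th percentile), the median over the probe sets of a gene, leaving out probe sets ending in _x_at or _s_at, requiring both arrays above the floor, quantile normalization and a loess correction. The exception was the scaling to poly-A spikes, with 1 gene higher and 2 lower. Under it the medians were -0.30 for all members, 0.10 for HSP70 and HSP110, -0.39 for HSP90 and its co-chaperones, -0.23 for small HSP, -0.30 for the mitochondrial chaperonin, -0.30 for Hsf2, -0.40 for DNAJ, -0.30 for BAG and -0.36 for the CCT complex. That shift follows from the construction of this scaling. The median over probe sets gave 0.28 for HSP90 and its co-chaperones and -0.015 for the mitochondrial chaperonin, which became -0.19 without probe sets ending in _x_at or _s_at. Hsf2 and Dnajb5 gave no value with the floor at the 65th percentile, so the counts there are over 35 members. The median of the other HSF1 targets was 0.50 at that floor and 0.26 with the spike scaling. Counting Hspa1a and Hspa1b as 1 gene, chosen after seeing the data, kept these counts within 1.5 times. No paired analysis was possible because each group has 1 array. Dim signals limit Hspa1a, Hspa4l, Hsf2 and Dnajb5 most.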
